A study of Homo sapiens with 6 samples.

Results

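Among the peaks of N6-methyladenosine (m6A) mapped after knockdown of TRA2A, 215 overlapped a peak found after knockdown of METTL3 and overlapped no peak of the control. They are called new shared peaks here. A peak was taken as a new shared peak when it had at least 1 base in common, on the same strand, with an shMETTL3 peak and with no shNC peak. They make up 215 of the 2736 peaks of the shTRA2A list, 7.86%, or 11.9% of the 1810 that overlap no control peak. Of the 926 shTRA2A peaks on a control peak, 435 overlapped an shMETTL3 peak, 47.0%. The 3 lists hold 17375 peaks in all (2736 for shTRA2A, 5433 for shMETTL3 and 9206 for shNC). They were chosen by the measured peak positions in all 3 lists, so presence after both knockdowns and absence from the control are the definition of these peaks and not a result.

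The cells were U-251 MG, a human glioblastoma line, and m6A was mapped by methylated RNA immunoprecipitation sequencing, in which an anti-m6A antibody enriches RNA fragments of 100 to 150 nt before sequencing, with input RNA sequenced for comparison. The groups were a short hairpin RNA against TRA2A (shTRA2A), a short hairpin RNA against METTL3 (shMETTL3) and a control hairpin (shNC), and each gave 1 immunoprecipitated library and 1 from input, which makes 6 libraries. The study set out to compare m6A in TRA2A-knockdown cells with that in control cells. The labels give no hairpin sequence, time after transduction, clone or separate culture, and each condition has 1 peak list, so the spread between replicates is unknown and conditions are described without a test.

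m6A is written on nascent transcripts by a complex whose catalytic subunit is METTL3, with METTL14, WTAP, ZC3H13, VIRMA, RBM15 and RBM15B as further components, and it is usually found near stop codons and in long internal exons, at the core sequence GGAC and its relatives. TRA2A is an SR-like protein that binds RNA and regulates alternative splicing. Many hnRNP and SR proteins, which bind RNA and steer splicing, adjust the splicing of their own transcripts.

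Peak lists hold no RNA levels, so they do not show how far each hairpin lowered its target, and more methylation and more transcript cannot be told apart at a new peak. TRA2A had 1 shTRA2A peak, no shMETTL3 peak and no shNC peak, METTL3 had no peak in any list, and neither gene had a new shared peak. Of 9 astroglial and glioma markers, 4 had an shTRA2A peak, 4 an shMETTL3 peak and 5 an shNC peak, while 0 of 5 markers of microglia and blood and 0 of 3 of endothelium had a peak in any list. Of 5 neuron markers, 1 had an shTRA2A peak, 0 an shMETTL3 peak and 1 an shNC peak, and of 3 oligodendrocyte markers 1 had a peak, in shMETTL3. A marker without a peak may still be expressed.

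Sequence was read for new shared peaks that lie on a promoter window of RefSeq (GRCh38.p14), taking bases before the listed transcription start alone. Stretches of at least 30 bases were found in 8 genes and searched for GGAC, the core m6A sequence, on the gene's strand. It occurred in 2 of them, DLG4 and NFIB, and not in MEPCE, UTP4, GPR146, ZNF580, TMUB1 or LOC284600. The stretches differ in length, and those of GPR146, ZNF580 and TMUB1 were only 75, 40 and 48 bases long. Of all promoter windows, 13.5% hold GGAC in their first 40 bases, 16.0% in their last 48 and 24.0% in their last 75. Absence from such short stretches is therefore common. Of the 5 whole windows of 250 bases among these stretches 3 held it, from DLG4 and NFIB, and 59.0% of 35116 RefSeq promoter windows do. The sites in DLG4 and NFIB are shown because they hold the motif, and LOC284600 as an example without it. LOC284600, the 1 long non-coding gene among the new shared peaks, has a peak of 75 nt with the same ends in both knockdown lists, and 69 of its bases lie 250 to 182 nt before a listed start, on the plus strand of chr1:904865-904933.
LOC284600: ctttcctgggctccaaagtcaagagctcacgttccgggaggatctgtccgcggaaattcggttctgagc
No GGAC was found in these 69 bases, and 22.2% of all promoter windows hold it in the same 69 positions.

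DLG4, which encodes the postsynaptic scaffold PSD-95, has a new shared peak of 1937 nt that covers a listed start inside the gene body, with its midpoint 13994 nt from the 5′ end of the gene. The 250 bases before that start hold 4 GGAC, written in capitals, on the minus strand. They are given with the flanking bases, 238, 152, 95 and 26 nt before the start, at chr17:7205409-7205437, chr17:7205323-7205352, chr17:7205266-7205295 and chr17:7205197-7205226.
DLG4 site at 238 nt: gaagtaggttggGGACcccggaaggaggc
DLG4 site at 152 nt: ggggaagcccctaGGACcgggctaaagcgg
DLG4 site at 95 nt: cgattgacgtcagGGACctgggcacgcccc
DLG4 site at 26 nt: gatgagcgggataGGACccggatgtctttc
NFIB, a transcription factor of glial development, has a new shared peak of 7458 nt on the minus strand that covers listed starts inside the gene body, with its midpoint 213778 nt from the 5′ end of the gene. Its promoter windows hold GGAC 99 nt before one start, at chr9:14315037-14315066, and 117 and 89 nt before another, at chr9:14316238-14316267 and chr9:14316210-14316239, where the site at 89 nt carries the motif a second time, after 1 intervening base.
NFIB site at 99 nt: ccgcaggctccgcGGACtgagcccgccccg
NFIB site at 117 nt: gctctttgaaaacGGACtgtgtttgagcat
NFIB site at 89 nt: atttccctaatgaGGACaGGACggggttaa
Of all promoter windows, 59.0% hold GGAC on the gene's strand in their 250 bases, the search made here. Counting the reverse complement GTCC as well, a wider search, 82.0% do. A match describes the letters and is neither a methylated site nor a cause of the peak. In all, 7 new shared peaks span a listed start on their own strand, in MEPCE, RIPOR1, UTP4, DLG4, TMUB1, CUL9 and NFIB.

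Each list gives every peak a score from the authors' peak caller, whose scale is not stated, so scores are compared here only by rank within a list. New shared peaks scored 5.14 to 33.9 in shTRA2A, with a median of 8.37, and the whole shTRA2A list had a median of 7.998. By rank, their median sat at percentile 66.0 of the shTRA2A list, where 100 is the highest score. Peaks overlapping neither other list (1595) had a median percentile of 39.7, peaks on shMETTL3 and shNC peaks alike (435) had 75.3, and peaks on shNC peaks alone (491) had 56.5. The median of the new shared peaks thus lay between that of the peaks found in shTRA2A alone and that of the peaks found in all 3 lists, a description without a test.

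The overlapping shMETTL3 peaks scored 3.34 to 41.0, with a median of 8.25, and their median percentile within the shMETTL3 list was 47.2. Of the 215, 34 stood in the top 10% of the shTRA2A list, 15.8%. A peak in the top 10% of the shMETTL3 list was overlapped by 21, or 9.77%, near the 10% of that whole list. The 4 in the top 10% by both measures, 1.86%, lay in HNRNPH3, HUWE1, ZC3H13 and TNKS1BP1, the last named after its values were seen. The HUWE1 peak had only 25 nt in common with its shMETTL3 peak. In all, 74 were in the better-scoring 50% of both lists, 34.4% (28.1 to 41.2%, exact Clopper-Pearson 95% interval, as for all intervals below). The ranks of the 2 scores were nearly unrelated, with Spearman's rho of 0.07 over the 215 peaks and 0.01 over the 131 of regular width. Over the 435 shTRA2A peaks on shMETTL3 and shNC peaks alike rho was 0.004, so this was not particular to new shared peaks. A regular peak is a single block of at most 1000 nt whose width is a multiple of 25 nt.

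**Figure D1:**
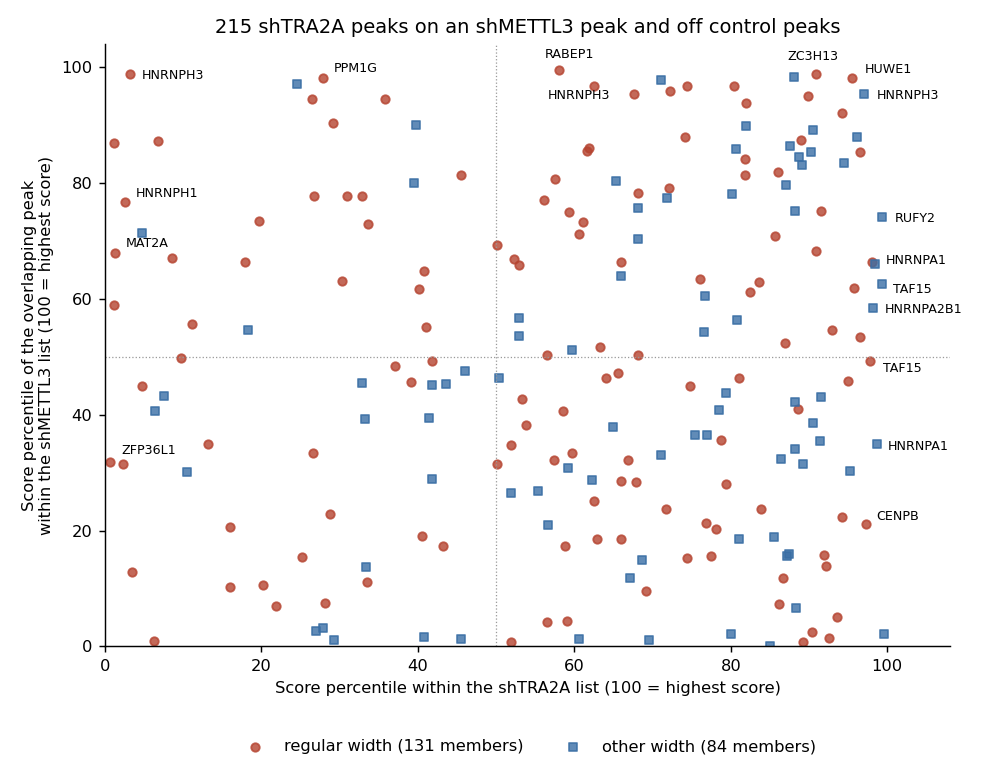
Each point is 1 of the 215 new shared peaks, placed by its score percentile within the shTRA2A list (x axis, %) and that of the overlapping shMETTL3 peak within its own list (y axis, %), where 100 is the highest score. Circles are the 131 peaks of regular width and squares the 84 others. The points fill the whole square. One peak of HNRNPH3 and those of ZC3H13 and HUWE1 lie high on both axes, though the HUWE1 peaks have only 25 nt in common. TAF15, HNRNPA1 and CENPB lie high on the shTRA2A axis and lower on the other.

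The knockdown lists placed the ends of these peaks alike in part. In 42 of 215 (19.5%, 14.5 to 25.5%) start and end were identical in shTRA2A and shMETTL3, in 73 the shTRA2A peak lay inside a wider shMETTL3 peak, in 43 it held a narrower one, and in 57 the ends crossed. The whole shorter peak was shared in 158 (73.5%). Identical ends occurred in 13 of 131 regular peaks (9.92%) and in 29 of 84 of other width (34.5%, 24.5 to 45.7%). The bases in common numbered 25 to 9087, with a median of 75, and 18 peaks shared the smallest overlap found, 25 nt. New shared peaks were 50 to 9108 nt wide with a median of 175 nt. Of them, 57 were over 1000 nt wide, 26.5%, so such spans may cross introns. Peaks of that width were 25.1% of all shTRA2A peaks and 30.8% of peaks off both lists.

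Off control does not mean far from control. The nearest shNC peak on the same strand lay a median of 8559 nt away, over the 214 new shared peaks that have one on their chromosome strand, and a median of 31032 nt away for shTRA2A peaks that overlap neither other list. Of the 215, 62 had an shNC peak within 500 nt, 28.8% (22.9 to 35.4%), against 276 of 1595, 17.3% (15.5 to 19.3%), for peaks off both lists. Within 100 nt the counts were 38, 17.7% (12.8 to 23.4%), and 141, 8.84% (7.49 to 10.3%). Among regular peaks alone, 39.7% and 21.9% had an shNC peak within 500 nt, and among the others 11.9% and 10.5%. These shares stand side by side without a test, since the rule used the same control positions.

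**Figure D2:**
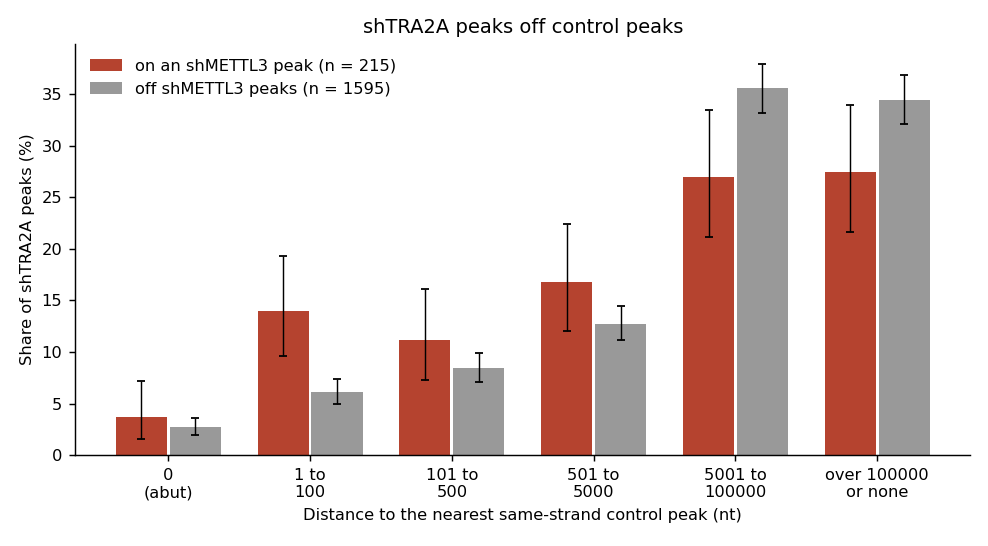
Bars give the share (%) of shTRA2A peaks off control peaks at each distance (nt) from the nearest same-strand shNC peak, for the 215 that overlap an shMETTL3 peak (red) and the 1595 that do not (grey); whiskers are exact 95% intervals. The red bar is higher at 1 to 100 nt, 14.0% and 6.14%, and lower beyond 5000 nt.

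At the edge of the rule, 8 new shared peaks touch an shNC peak end to end, 0 nt apart: in COL4A2, PRP4K, NISCH, HOXC10, MEPCE, PALM2AKAP2, DNAJC14 and SCAF1. In PRP4K, a kinase of splicing factors, the peak at 6:4031634-4031683 scored 10.3 in shTRA2A and 8.51 in shMETTL3, and it touches a control peak that scored 120 in shNC. The shMETTL3 peak, at 6:4031559-4031958, also overlaps that control peak. In COL4A2, a basement membrane collagen, the peak at 13:110424839-110424972 scored 10.5 in shTRA2A and 14.0 in shMETTL3, next to a control peak of 30.2. Just outside the rule, 15 shTRA2A peaks overlap all lists but share only 25 nt with the control, among them peaks in NR2F1, ZBTB1, YBX3 and PSME4, and 28 peaks off both lists touch an shMETTL3 peak. Other new shared peaks lay far from any control peak: that of CENPB 148758 nt and that of GIGYF1 109244 nt from the nearest.

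A gene could be given to 208 of the 215, in 187 genes. Of the 1871 genes with an shTRA2A peak, 187 held a new shared peak, 9.99%, which is the background for the gene groups below. In 119 of the 187 the control list had a peak elsewhere in the gene and in 68 it had none. By peak, 135 of 208 were in a gene with an shNC peak, 64.9% (58.0 to 71.4%), against 847 of 1534, 55.2% (52.7 to 57.7%), of the peaks off both lists. HNRNPH3 and NES held 3 new shared peaks each and 17 genes held 2, among them TAF15, HNRNPA1, ZNF316, RBM15B, MEPCE, ITGA5, SLC9A3, RABEP1, BRD2, CELF1, CSTF2T and AHNAK.

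Several of the best-scored new shared peaks lay in genes of RNA-binding proteins, TAF15, HNRNPA1, HNRNPA2B1, HNRNPH3 and RBM15B. TAF15 is an RNA-binding protein that also associates with the transcription factor TFIID. Its wider peak, at 17:35844923-35846939, scored 23.2 in shTRA2A (rank 20 of 2736) and 9.25 in shMETTL3 (rank 2031 of 5433), and its other, at 17:35844523-35844672, scored 16.6 (rank 61) and 8.36 (rank 2755). TAF15 had no shNC peak, and its peak of 99.6 in shMETTL3 lay elsewhere in the gene, at 17:35820271-35820320, where shTRA2A had none.

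HNRNPA1, an hnRNP that represses exon inclusion, had peaks at 12:54283731-54284345 and 12:54282205-54283217. They scored 19.3 and 18.7 in shTRA2A (ranks 38 and 44) and 7.74 and 9.59 in shMETTL3 (ranks 3535 and 1845). The control had 2 peaks in the gene, both further towards the 3′ end, and the nearer began 175 nt beyond the first of these and scored 20.9 in shNC. HNRNPA1 has near-identical processed copies in the genome, so reads that match several places could affect its peaks, and their handling is not stated in the labels.

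HNRNPA2B1, an hnRNP that also serves as a reader of m6A, had a peak of 326 nt at 7:26193274-26193599 that scored 17.8 in shTRA2A (rank 52). It lies inside an shMETTL3 peak of 1024 nt that scored 8.91 (rank 2258). The gene had 3 shTRA2A peaks, 1 shMETTL3 peak and no shNC peak, so the only shMETTL3 peak of the gene was the shared one.

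HNRNPH3 carried 3 new shared peaks within 751 nt. The widest, at 10:68341643-68342018, scored 15.3 in shTRA2A (rank 82) and lies inside an shMETTL3 peak of 20.6 (rank 251). The same shMETTL3 peak holds the second, at 10:68341568-68341617, which scored 8.43 in shTRA2A, while the third, at 10:68341268-68341342, scored 6.83 in shTRA2A and 30.9 in shMETTL3 (rank 64) with identical ends. The order of the 3 by score was thus opposite in part between the lists. The 1 shNC peak of HNRNPH3 scored 18.3 and lay 2724 nt from the nearest of them. On the opposite strand the same stretch lies under a new shared peak of RUFY2, an endosomal adaptor, at 10:68341182-68343498, which scored 25.2 in shTRA2A (rank 18) and 10.8 in shMETTL3 (rank 1405) with identical ends, in a gene without an shNC peak.

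HNRNPH1, its close relative, had a peak of 75 nt at 5:179619210-179619284 with identical ends, scoring 6.55 in shTRA2A (rank 2667) and 11.2 in shMETTL3 (rank 1269), and no shNC peak. SRSF11, an SR-related splicing protein, had a peak of 100 nt at 1:70250326-70250425 with identical ends, scoring 10.98 in shTRA2A (rank 277) and 19.97 in shMETTL3 (rank 267). It lay 204 nt from an shNC peak of 43.7, and SRSF11 had 4 shNC peaks. Genes of this group thus included some with no control peak and some with a strong control peak close by.

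**Figure D3:**
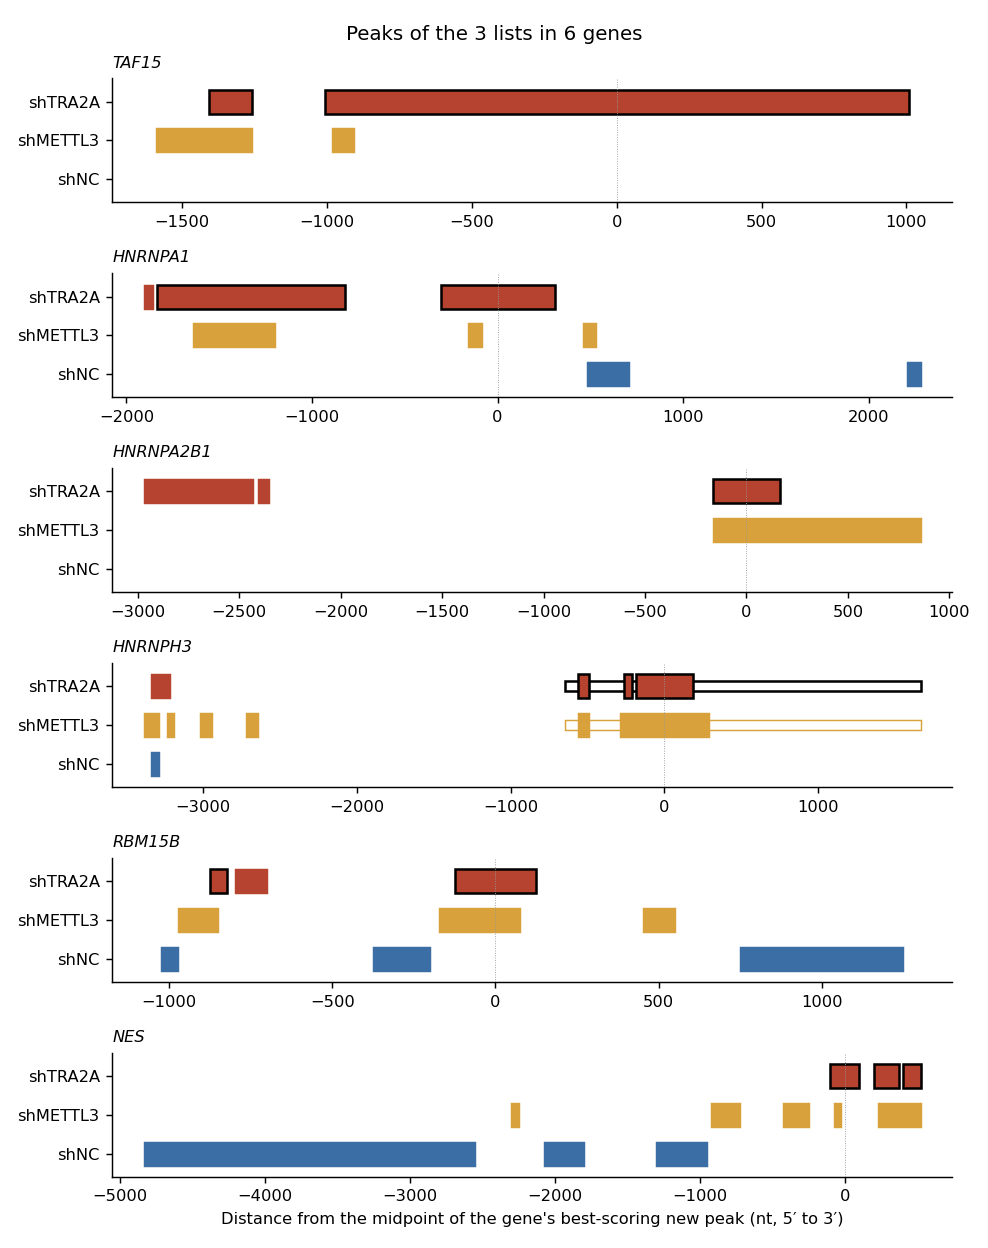
Peaks of shTRA2A (red), shMETTL3 (yellow) and shNC (blue) in TAF15, HNRNPA1, HNRNPA2B1, HNRNPH3, RBM15B and NES, by distance (nt, 5′ to 3′) from the midpoint of the gene's best-scoring new shared peak; peaks within 5000 nt are drawn, new shared peaks have a black outline, and open thin bars lie on the opposite strand. TAF15 and HNRNPA2B1 have no shNC peak. In HNRNPA1, HNRNPH3, RBM15B and NES the nearest shNC peak lies 175, 2724, 75 and 850 nt from a new shared one. By the rule, no same-strand shNC peak can lie under a new shared peak.

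Of 31 listed SR proteins and splicing factors with an shTRA2A peak, 7 held a new shared peak, 22.6% (9.59 to 41.1%), set against 9.99% of all genes: ACIN1, BCLAF1, CELF1, HNRNPA1, HNRNPH1, SRSF11 and TAF15. The interval takes in the share of all genes, and the count is no test. CELF1, a regulator of splicing and mRNA decay, had a pair of new shared peaks that overlap the same shMETTL3 peak, scoring 8.37 and 8.29 in shTRA2A and 6.95 in shMETTL3, and no shNC peak.

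Genes of the m6A machinery itself were among those with new shared peaks. RBM15B, which brings the writer complex to its RNA targets, had a peak of 250 nt at 3:51393035-51393284 that scored 14.4 in shTRA2A (rank 97) and 8.58 in shMETTL3, 75 nt from an shNC peak of 16.9. Its other, at 3:51392285-51392334, scored 7.69 in shTRA2A and 16.0 in shMETTL3 and lay 100 nt from an shNC peak. That peak had 25 nt in common with its shMETTL3 peak. The gene had 3 peaks in each list, with the best shNC peak at 40.9, so the new shared peaks fell between control peaks of the same transcript.

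ZC3H13, a zinc finger subunit of the writer complex, had 8 shTRA2A, 13 shMETTL3 and 9 shNC peaks, and 1 of its shTRA2A peaks was new and shared. It spans 50 nt at 13:45967937-45967986 in both lists and scored 11.3 in shTRA2A (rank 251) and 30.8 in shMETTL3 (rank 67), 150 nt from an shNC peak of 77.9. MAT2A makes S-adenosylmethionine, the methyl donor of the writer, and its mRNA is itself a known METTL16 target. Its peak of 75 nt at 2:85544872-85544946 scored 5.75 in shTRA2A (rank 2702) and 9.78 in shMETTL3 (rank 1741). MAT2A had no shNC peak, but a peak of nearly the same ends lay on the opposite strand in GGCX, with scores of 5.57 and 8.96. MAT2A and GGCX were named after their values were seen.

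Of the 8 listed writers and other RNA methyltransferases with an shTRA2A peak, 2 held a new shared peak, 25% (3.19 to 65.1%). Of 9 demethylases and readers 1 did, HNRNPA2B1, 11.1% (0.281 to 48.2%). Both intervals take in the 9.99% of all genes. In the IFIT family, interferon-induced RNA-binding proteins that the study's title ties to TRA2A, IFIT1 had the family's only shTRA2A peak, and it was not a new shared one. IFIT1 had 1 shTRA2A, 3 shMETTL3 and 2 shNC peaks. EGFR had 1 shTRA2A, 1 shMETTL3 and 6 shNC peaks and no new shared one. None of the 11 listed interferon-stimulated genes and none of the 9 EGFR and RAS signalling genes with an shTRA2A peak held one, at these small numbers.

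Genes of the glioma and matrix lists with a new shared peak included NES and ITGA5. NES encodes nestin, an intermediate filament of neural progenitors and glioma cells, and held 3 new shared peaks within 625 nt, all towards the 3′ end from its 3 shNC peaks. They scored 11.8, 9.597 and 8.596 in shTRA2A, and the overlapping shMETTL3 peaks scored 3.87 for the first and 7.23 for the other two, which share 1 shMETTL3 peak. The nearest shNC peak, 850 nt from the first, scored 32.2. ITGA5, the fibronectin receptor subunit, had 2 new shared peaks and no shNC peak, one of 5727 nt with identical ends that scored 10.6 in shTRA2A and 10.97 in shMETTL3, and one of 175 nt that scored 10.8 and 3.61.

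Of 15 listed glioma, neural and mesenchymal genes with an shTRA2A peak, 3 held a new shared peak, 20% (4.33 to 48.1%): NES, NFIB and ZEB2. That interval takes in the 9.99% of all genes. NFIB scored 7.67 in shTRA2A and 4.39 in shMETTL3. ZEB2, a repressor that drives mesenchymal change, had a peak of 125 nt near the 3′ end of the gene that scored 8.11 in shTRA2A and 11.3 in shMETTL3, 175 nt from an shNC peak of 23.6. The ZEB2 peak had 25 nt in common with its shMETTL3 peak. Of 30 extracellular matrix and adhesion genes with an shTRA2A peak, 3 held a new shared peak: COL4A2, ITGA5 and VCAN. That is 10% (2.11 to 26.5%), the level of all genes. The peak in VCAN, a matrix proteoglycan with 24 shNC peaks, lay antisense to the gene.

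Chromatin regulators gave the most genes of any fixed list, 8 of the 51 with an shTRA2A peak (15.7%, 7.02 to 28.6%): BRD2, CHD3, CREBBP, DAXX, HDAC4, KDM6B, KMT2B and SMARCA2. KMT2B, a histone H3 lysine methyltransferase, had a peak of 200 nt inside an shMETTL3 peak, scoring 11.3 in shTRA2A and 9.82 in shMETTL3, 250 nt from an shNC peak. CHD3, a remodelling ATPase, had a peak of 50 nt with identical ends that scored 8.79 in shTRA2A (rank 700) and 23.2 in shMETTL3 (rank 178). In KDM6B, a histone demethylase, and HDAC4, a histone deacetylase, the peaks were 3700 and 7204 nt wide with identical ends.

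CREBBP, a histone acetyltransferase, had 7 shNC peaks and a new shared peak of 1527 nt, and DAXX, a histone chaperone, had none in the control and one of 306 nt that scored 10.8 in shTRA2A and 7.61 in shMETTL3. The interval of the chromatin list takes in the 9.99% of all genes. Of 58 ZNF genes with an shTRA2A peak, 5 held a new shared peak, 8.62% (2.86 to 18.98%), and ZNF316 held 2 that overlap the same shMETTL3 peak of 13.5 and scored 14.6 and 11.1 in shTRA2A. The second had 25 nt in common with that shMETTL3 peak. MEPCE, which caps the 7SK RNA, held 2 new shared peaks, scoring 12.6 and 9.40 in shTRA2A and 12.8 and 18.7 in shMETTL3. The shMETTL3 peak of 18.7 has 50 nt in common with the second. It also covers the control peak at 7:100430916-100431065, which scored 15.6 in shNC. HEXIM1, which acts with 7SK to hold back transcription elongation and was named after its values were seen, held 1 new shared peak. It scored 10.0 in shTRA2A and 12.5 in shMETTL3. HEXIM1 had 3 shNC peaks, and the nearest, 100 nt away, scored 22.5.

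**Figure D4:**
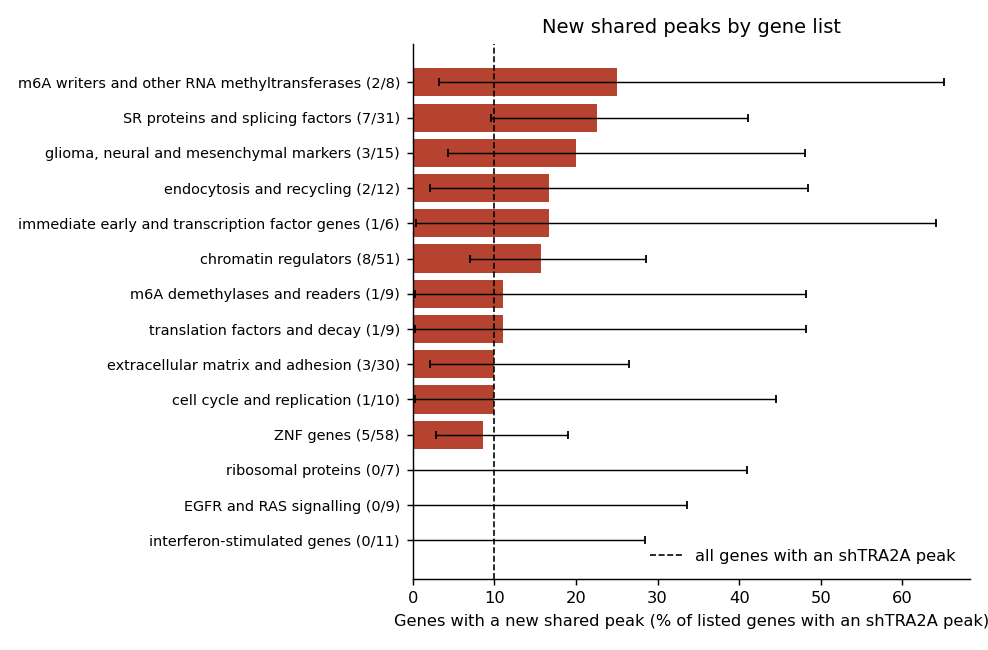
Bars give, for each list of genes, the share (%) of its genes with an shTRA2A peak that hold a new shared peak, with counts beside the names, exact 95% intervals as whiskers and the 9.99% of all 1871 genes as a dashed line. The intervals are wide, and those of SR proteins and splicing factors (9.59 to 41.1%) and chromatin regulators (7.02 to 28.6%) take in the dashed line.

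The other lists gave 1 or 2 genes each, and their intervals took in the 9.99% of all genes. ITSN1 and RAB7A, an endocytic scaffold and a GTPase of late endosomes, were the 2 of 12 in endocytosis and recycling, MCM10, a replication factor, was the 1 of 10 in the cell cycle list, ZFP36L1, which promotes mRNA decay, the 1 of 6 in the immediate early list, and CNOT6, a deadenylase, the 1 of 9 in translation and decay. The RAB7A peak, of 9019 nt at 3:128814705-128823723, lies almost wholly beyond the 3′ end of the gene body at 128814798. It scored 3.84 in shMETTL3 (rank 5363 of 5433). ZFP36L1 had the lowest score of all new shared peaks, 5.14 in shTRA2A, and 7.62 in shMETTL3, in a gene without an shNC peak. No gene held one among 7 ribosomal protein genes, 4 of energy metabolism, 3 of the unfolded protein response, 2 p53 targets or 1 histone gene with an shTRA2A peak.

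Outside the lists, further genes stood out by score in one list or the other. PLEKHA4, CENPB and PSMD1 had no shNC peak. PLEKHA4, a phosphoinositide-binding protein, scored 17.7 in shTRA2A (rank 54) and 9.63 in shMETTL3. CENPB, which binds centromeric DNA, scored 15.6 in shTRA2A (rank 76) and 7.10 in shMETTL3 with 25 nt in common, and PSMD1, a subunit of the proteasome's regulatory particle, scored 14.2 in shTRA2A and 14.5 in shMETTL3. In shMETTL3 the highest score was in RABEP1, an effector of RAB5 on early endosomes, with 8.16 in shTRA2A and 41.0 in shMETTL3 (rank 31). That pair of peaks had 25 nt in common. ZC3H13 and HNRNPH3 came next. CWC15, a spliceosomal protein, scored 10.6 in shTRA2A and 27.9 in shMETTL3, PPM1G, a phosphatase, 7.67 and 27.5, and HUWE1, a ubiquitin ligase, 13.4 and 27.5. The HUWE1 peak had 25 nt in common with an shMETTL3 peak of 1464 nt. RABEP1, CWC15, PPM1G and HUWE1 each had shNC peaks elsewhere in the gene. The highest shTRA2A score of all, 33.9, belonged to a peak of 3732 nt at 11:1749102-1752833 that touches both CTSD and IFITM10, could not be given to one gene, and scored 4.08 in shMETTL3 (rank 5314).

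Position along the gene was read from the strand and body of each gene. Of 174 in genes of known strand, 164 were sense, 94.3%, against 94.7% of peaks off both lists. Of the 164, 62 had their midpoint in the last 20% of the gene body, 37.8% (30.4 to 45.7%), against 35.8% (33.1 to 38.7%) of peaks off both lists and 48.9% (43.6 to 54.2%) of peaks on all 3 lists. Their first 20% held 15.2%, 16.4% and 10.4% for new shared peaks, peaks off both lists and peaks on all lists. Within 1000 nt of the gene start lay 16 of 164, 9.76% (5.68 to 15.4%), 6.31% of peaks off both lists, 3.65% of peaks on all lists and 3.29% of all shNC peaks. Gene bodies include introns, and exons were not used here.

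**Figure D5:**
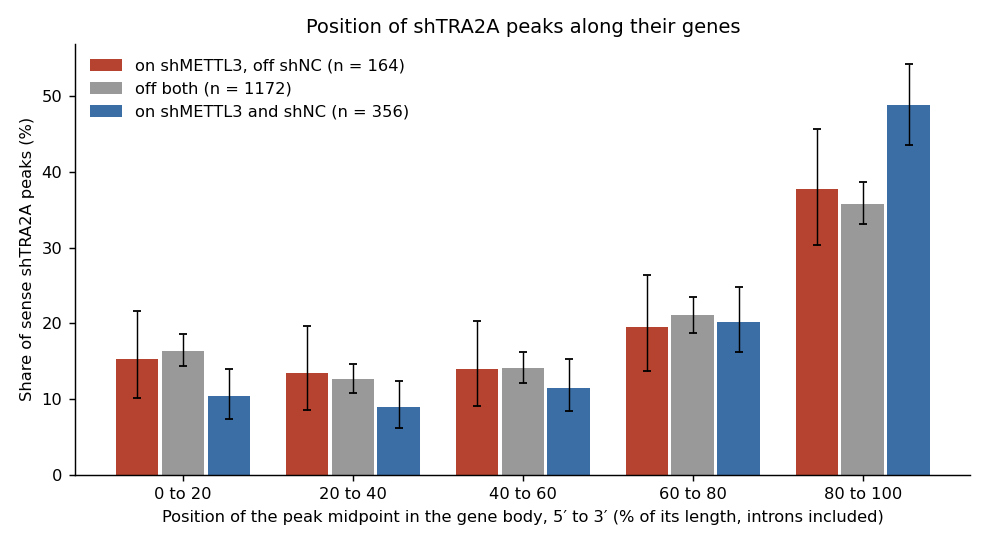
Bars give the share (%) of sense shTRA2A peaks by the position of their midpoint along the gene body (5′ to 3′, % of its length with introns), for the 164 new shared peaks (red), 1172 peaks off both lists (grey) and 356 on all 3 lists (blue), with exact 95% intervals. The last bin holds the most in every group, 37.8%, 35.8% and 48.9%.

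Chromosome 19 held 24 of the 215, 11.2% (7.28 to 16.2%), against 7.71% (6.45 to 9.13%) of peaks off both lists, 2.99% of peaks on all lists and 6.58% of all shTRA2A peaks. In all, 17 overlapped an shTRA2A peak on the opposite strand, 7.91% (4.67 to 12.4%), against 4.64% of peaks off both lists. Of these, 15 overlapped another new shared peak, in pairs such as MAT2A with GGCX, HNRNPH3 with RUFY2, NOP9 with CIDEB, and both strands of SLC9A3. The part that signal from the opposite strand plays in these pairs was not tested. The 209 shMETTL3 peaks overlapped by a new shared peak were 3.85% of the 5433, and 14 of them also overlapped an shNC peak elsewhere along their length.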

How the data were processed

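The 6 libraries of U-251 MG cells were used as the peak lists the authors deposited, 1 per condition, as headerless BED files with 12 columns. Column 5 holds a score per peak that the authors deposited, whose scale is not stated per the labels. Reads were handled with SAMtools, featureCounts 2.0.1 and HISAT2 2.2.1 on the build GRCh38, per the submitters' processing notes. Neither the peak caller nor the depth of sequencing is stated in the sources used here, so the precision of a score is unknown. A further deposited list, whose name matches no label and which equals the shTRA2A list byte for byte (0 bytes differ), was not used; it has 1 score column.

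Overlaps of at least 1 nt on the same strand were found with pandas 2.3.3 and numpy 2.4.6 in Python 3.11.15, and intervals with scipy 1.17.1. Simulated lists with known overlaps were used for a test, and bedtools 2.31.1 found the same 215 (0 differed). Genes came from RefSeq (GRCh38.p14), 20052 coding and 18330 long non-coding. A peak was given the coding gene it touches, passing over genes known to lie on the other strand where others remain, then the gene nested in the rest, then a long non-coding gene. Strand was known for 27304 genes. Scores were ranked within a list; 134 of the 215 share an exact score with another shTRA2A peak. Coordinates count from 1. Intervals are exact 95% Clopper-Pearson, treat peaks as independent and cover counting error alone.

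The rule, the 20 gene lists and the members were chosen with earlier results of these data known. Genes were named by a fixed rule: the best-scored in each knockdown list, those with most new shared peaks, the best without a control peak, up to 4 genes per list, non-coding genes, and those nearest to a control peak or with the smallest overlap. Further list genes and MAT2A, GGCX, HEXIM1, CTSD, NR2F1, ZBTB1, YBX3, PSME4, DLG4, GPR146, TNKS1BP1, RIPOR1, UTP4, TMUB1, CUL9, CSTF2T, AHNAK, NOP9, CIDEB, DNAJC14, SCAF1 and IFITM10 were named after their values were seen.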

Additional observations from a re-analysis of the deposited data

How the results depend on the processing

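No paired analysis was possible because each condition has 1 peak list and no result comes from a test. Of 75 alternative values, 57 stayed near the reported one and 18 moved. The count of 215 became 141 with regular widths, 83 with the better-scoring 50% of every list and 75 with the better-scoring 50% of the knockdown lists, and 177 to 223 in the other settings. The share in genes with an shNC peak (64.9%) became 57.3% without peaks within 100 nt of a control peak and 73.0% with the better-scoring 50% of the knockdown lists. The share with an shNC peak within 500 nt (28.8%) became 13.6% in the same exclusion, which removes such peaks by construction, 36.2% with regular widths and 36% with the better-scoring 50% of the knockdown lists. The share on an opposite-strand control peak (0.465%, 1 peak) became 0% when either strand counted, a setting that removes such peaks by construction. It was also 0% with regular widths, with either better-scoring setting and without peaks on both strands. That last setting, and gene assignment without strand, were chosen after seeing the data. Median percentiles, ranked within the shortened lists, became 53.6 in shTRA2A (66.0) with the better-scoring 50% of every list, and in shMETTL3 (47.2) 56.6 with that setting and 54.8 with the better-scoring knockdown peaks. Listed genes with a new shared peak (34) numbered 18 in each better-scoring setting. Depth is unknown, so absence from a list is absence of a called peak.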
